A study of Homo sapiens with 4 samples.

Results

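Genes for 10 surface proteins that are used to mark breast cancer stem cells were examined in mammospheres with and without TCOF1 knockout. They were CD44, CD24, PROM1, ITGA6, ITGB1, EPCAM, ABCG2, PROCR, THY1 and CD47. These 10 genes were taken by name from the 26475 gene symbols of the count tables, and all 10 were listed there. No threshold on measured values entered the choice. Of the 10 genes, 8 had at least 10 reads in at least 1 library, as did 15204 genes in all, and these were compared between libraries. ABCG2 and THY1 did not reach that number and are described by their reads alone.

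Cancer stem cells are the tumour cells thought to renew themselves and to seed new growth, and in breast tumours they are usually enriched by sorting on surface proteins. The classical gate takes cells with high CD44 and low or absent CD24, while CD133 (the product of PROM1), the laminin receptor subunits CD49f and CD29 (ITGA6 and ITGB1) and EPCAM are used as further marks. ABCG2 is a drug efflux pump behind the dye-excluding side population, PROCR and THY1 have been used to sort mammary stem or progenitor cells, and CD47 is a signal to macrophages not to engulf the cell. Mammospheres are floating clusters grown from single cells without attachment, a culture that favours cells with stem-like properties.

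The cells were MDA-MB-468, a long-established triple-negative breast cancer line of the basal-like type, and mammospheres were sequenced in 4 conditions with 1 library each. All of these cells carried spCas9 marked by mCherry and a doxycycline-inducible guide vector marked by green fluorescent protein, and were sorted as pools of doubly fluorescent cells rather than as single clones. CTL cells carried the control vector, were labelled wild type and had no treatment, and CTL+dox cells were the same cells given doxycycline. gRNA2 cells carried a guide against TCOF1 (the nucleolar protein treacle), were labelled wild type and had no treatment, and gRNA2+dox cells were given doxycycline and labelled as the TCOF1 knockout. Several culture plates were pooled into each library, and no condition had a biological replicate. The 4 libraries therefore compare libraries, not conditions, and no p-value is given. Every interval below is a 95% interval that covers counting error only. The intervals are exact except those of differences between ratios, which use a normal approximation.

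Reads on genes ranged from 19960644 in CTL to 26322847 in gRNA2, and the 10 markers together took 0.36% to 0.385% of them. Levels are given as counts per 1000000 reads (CPM), scaled with TMM factors of 0.985 to 1.023, and the floor of 3 reads corresponded to 0.115 to 0.147 CPM. Reads outside annotated genes made up 12.5% of gRNA2+dox against 10.6% to 11.3% of the other 3 libraries. For TCOF1 itself the CTL and CTL+dox libraries held 1019 and 754 reads and the gRNA2 and gRNA2+dox libraries 1318 and 437. Its log2 ratio was -1.34 for gRNA2+dox against gRNA2 (interval -1.50 to -1.18), and it was also lower in CTL+dox than in CTL, by a log2 ratio of -0.58 (interval -0.71 to -0.44). The 7 epithelial genes summed to 5457 to 6237 CPM and the 7 basal or myoepithelial genes to 10710 to 11960 CPM. Nearly all of the basal sum was KRT5, KRT14 and KRT17, while TP63 had at most 33 reads, ACTA2 at most 8 and CNN1 at most 6. Of the 5 luminal hormone receptor genes, which summed to 152 to 207 CPM, GATA3 had 2525 to 4169 reads and FOXA1 570 to 841, whereas ESR1 had at most 13 and PGR at most 7. Of 12 white blood cell genes, 8 including PTPRC had at most 3 reads in every library, and the list summed to 62.8 to 69.3 CPM, mostly CSF1R. The 6 endothelial genes summed to 14.1 to 16.5 CPM, mostly KDR with 257 to 337 reads, while CDH5 had 3 reads or fewer. The 10 fibroblast or mesenchymal genes summed to 1554, 1737, 1861 and 1976 CPM in CTL, CTL+dox, gRNA2 and gRNA2+dox, nearly all of it FN1. VIM had 660, 922, 834 and 560 reads in that order, COL1A1 had 358 to 543, and COL3A1, DCN and LUM had at most 3 throughout. By the rule for calls given below, VIM was lower (log2 ratio -0.67) and PDGFRA higher (0.94) in gRNA2+dox against CTL+dox. That is 40% of the 5 genes compared, beside 8.42% of all compared genes. PDGFRA was also called higher in gRNA2 against CTL (0.95). In gRNA2+dox against gRNA2, MYLK of the basal list was called lower (-0.62) and ESR1, on 4 and 13 reads, higher (1.81). Whether the sums of these lists have a part in any marker's level was not tested.

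The guide is shown because the gRNA2 pool carries it, and the gene bodies of the markers were searched for its closest matches. The sequences are written 5′ to 3′, the first with the protospacer-adjacent motif (PAM) in capitals and the others with the mismatched bases in capitals.
TCOF1 gRNA2: gggccggcgcctttccccaaGGG
CD44 nearest site: AggccgCcAGctttccccaGtgg
PROM1 nearest site: gTgGGgCTgcAtGtccccaGtgg
In the GRCh37 genome the guide matched TCOF1 with 0 mismatches on the reverse strand of a coding exon, at chr5:149754959-149754981. The CD44 site lay on the reverse strand in non-coding exon sequence, at chr11:35198307-35198329, and differed at 5 positions, G1A, G7C, G9A, C10G and A20G, counted from 1 at the 5′ end of the guide. The nearest PROM1 sites, of which the one shown lay in an intron at chr4:15995813-15995835 on the forward strand, differed at 8 positions. In ITGB1, EPCAM and ABCG2 the nearest site had 7 mismatches, in ITGA6, PROCR and CD47 it had 8, and in THY1 it had 9. CD24 was not listed in the annotation used and was not searched. A match of this kind describes the letters only, and whether any such site was edited was not measured.

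CD44, the receptor for hyaluronan, was by far the most read of the 10 markers. Its reads numbered 32901 and 36276 in CTL and CTL+dox and 51594 and 39687 in gRNA2 and gRNA2+dox, and it ranked 36 among all genes by reads in CTL. After scaling these were 1611, 1610, 1981 and 1817 CPM. Both libraries of the gRNA2 pool were thus above both libraries of the CTL pool, and CTL and CTL+dox could not be told apart. CD44 lies on chromosome 11 of GRCh38 from 35139171 to 35232402.

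CD24 is a heavily glycosylated, GPI-anchored protein that serves as a ligand of Siglec-10 on macrophages, and its low surface level is the other part of the classical gate. The CTL pool gave 15065 reads without and 18004 with doxycycline and the gRNA2 pool 18353 and 16027, or 738, 799, 705 and 734 CPM. CTL+dox was the highest and gRNA2 the lowest, and the highest exceeded the lowest 1.13-fold. CD24 has processed pseudogenes, and a read that maps equally well to a copy is not counted, so its level is less certain than its ratios. It lies on chromosome 6 from 106969831 to 106976855.

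EPCAM, a homophilic adhesion molecule of epithelia, had 8907, 10708, 11320 and 9526 reads in CTL, CTL+dox, gRNA2 and gRNA2+dox. These were 436, 475, 435 and 436 CPM, so that CTL+dox alone was higher and the other 3 libraries lay within 1 CPM of each other. EPCAM lies on chromosome 2 from 47369311 to 47387020.

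The integrin subunits ITGA6 and ITGB1, which pair to form a laminin receptor, moved little. ITGA6 had 6082, 7344, 8741 and 7466 reads in the same order of libraries, or 298, 326, 336 and 342 CPM. CTL was its lowest library. ITGB1 had 4946, 5829, 6812 and 5456 reads, or 242, 259, 262 and 250 CPM, a spread of 1.08-fold that was the smallest of the 8 compared markers. ITGA6 lies on chromosome 2 from 172427336 to 172506459 and ITGB1 on chromosome 10 from 32900318 to 32958230.

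CD47, the signal against engulfment, had 2790, 3459, 3302 and 3161 reads in that order, or 137, 154, 127 and 145 CPM. Each library with doxycycline was above its partner without. CD47 lies on chromosome 3 from 108043091 to 108091031.

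PROM1 encodes prominin-1, a cholesterol-binding protein of membrane protrusions. Reads numbered 1087 without and 1182 with doxycycline in the CTL pool and 1015 and 671 in the gRNA2 pool, or 53.2, 52.5, 39.0 and 30.7 CPM. Both libraries of the gRNA2 pool were below both of the CTL pool, and gRNA2+dox was the lowest of all. PROM1 lies on chromosome 4 from 15968228 to 16084023.

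PROCR, the endothelial protein C receptor, had 50 reads in CTL against 102 in CTL+dox, and the gRNA2 and gRNA2+dox libraries had 105 and 93, or 2.45, 4.53, 4.03 and 4.26 CPM. CTL stood below the other 3 libraries, whose intervals overlapped. PROCR lies on chromosome 20 from 35171096 to 35216259.

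The remaining markers were at or near the floor. ABCG2 had 5, 0, 7 and 2 reads in CTL, CTL+dox, gRNA2 and gRNA2+dox, counts too low to enter the comparisons. With no filter on low counts, the 5 reads of CTL against the 0 of CTL+dox would have been called. THY1, a GPI-anchored protein also found on fibroblasts, had 1 read in gRNA2 and 0 reads in the other 3 libraries. In those libraries the floor of 3 reads corresponded to 0.147 CPM in CTL, 0.133 CPM in CTL+dox and 0.137 CPM in gRNA2+dox. ABCG2 and THY1 lie on chromosome 4 from 88090264 to 88231626 and on chromosome 11 from 119415476 to 119424985.

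**Figure D1:**
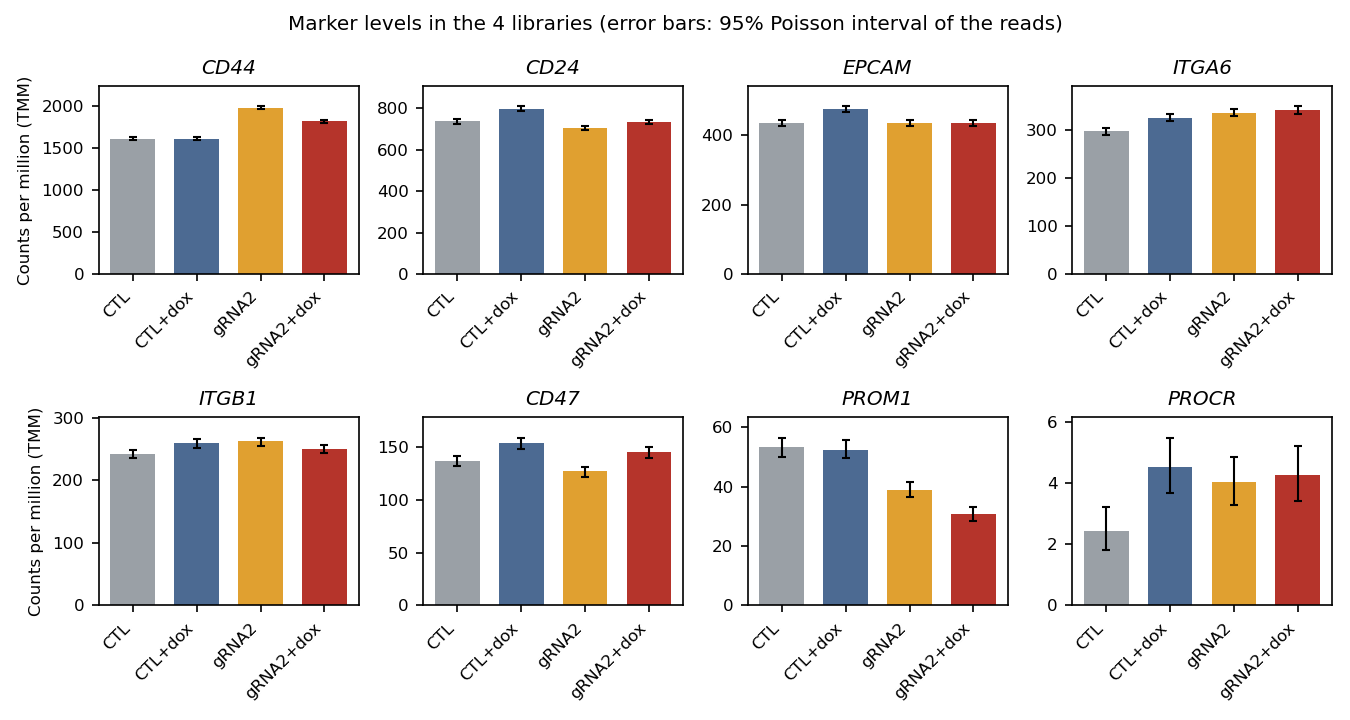
Level of the 8 compared markers in CPM (vertical axes, from 0, on a separate scale for each gene) in the CTL, CTL+dox, gRNA2 and gRNA2+dox libraries. Bars are single libraries and error bars are 95% Poisson intervals of their reads. PROM1 is lowest in gRNA2+dox at 30.7 CPM, CD44 is highest in gRNA2 at 1981 CPM, and PROCR is lowest in CTL at 2.45 CPM.

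Levels of different genes were ordered per length, as reads per kilobase of exon, scaled to a total of 1000000 in each library. In CTL, EPCAM stood at 740 (interval 725 to 755) and CD44 at 665 (657 to 672), at the 98.8 and 98.7 percentile of the compared genes with a length. ITGA6 followed at 184 (179 to 188). ITGB1 at 68.6 (66.7 to 70.5) and CD47 at 68.4 (65.9 to 71.0) did not differ beyond counting error. PROM1 stood at 29.4 (27.7 to 31.2) and PROCR at 5.95 (4.41 to 7.84), at the 64.4 and 32.8 percentile of the same genes. ABCG2, at 0.18 (0.0585 to 0.42), and THY1, listed at 0, closed the order, and CD24 was left out for want of a length. In gRNA2 the order of the leading pair was turned, with CD44 at 793 and EPCAM at 715, and in gRNA2+dox CD44 at 715 and EPCAM at 705 had overlapping intervals. The order within this pair and that of the integrin subunits also depended on the exon length used. So did the closeness of ITGB1 and CD47. With the length of the canonical transcript alone, CD44 stood at 738, EPCAM at 701, ITGB1 at 161, ITGA6 at 127 and CD47 at 64.2 in CTL.

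The knockout was first compared with its own uninduced pool, gRNA2+dox against gRNA2. A gene was called when its log2 ratio was beyond 0.5 in either direction and its interval excluded 0. None of the 8 markers was called, where 5.12% of the 15204 compared genes were, 2.08% as higher and 3.05% as lower. The median log2 ratio of the markers was 0.02 and that of all compared genes -0.02. In such bulk RNA, fewer cells of a type and less RNA per cell cannot be told apart.

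The lowest marker in this comparison was PROM1, with a log2 ratio of -0.34 (interval -0.49 to -0.20). CD44 was at -0.12 (-0.14 to -0.11) and ITGB1 at -0.07 (-0.12 to -0.01). On the other side, CD47 was at 0.19 (0.12 to 0.26) and CD24 at 0.06 (0.03 to 0.09). The intervals of EPCAM at 0.01, ITGA6 at 0.03 and PROCR at 0.08 included 0. With the interval alone and no size limit, 5 of the 8 markers were apart from 0, against 31.0% of all compared genes. Most markers were read deeply, which narrows their intervals, and among the 6627 genes with at least 500 reads in every library the share was 46.3%, beside 5 of the 7 markers read that deeply.

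The knockout was then compared with the control pool under the same treatment, gRNA2+dox against CTL+dox. PROM1 was the single marker called, and it was lower, with a log2 ratio of -0.77 (interval -0.91 to -0.63), or 0.586 of its level in CTL+dox. Among all compared genes 5.04% were called lower and 3.38% higher in this comparison, 8.42% in all. CD44 was at 0.17 (0.15 to 0.19) and ITGA6 at 0.07 (0.02 to 0.12). CD24 and EPCAM were both at -0.12, CD47 was at -0.09 (-0.16 to -0.02), and the intervals of ITGB1 at -0.05 and PROCR at -0.09 reached 0. The median of the 8 markers was -0.09, and that of all compared genes 0.00. By the interval alone, 6 of the 8 markers were apart from 0, beside 40.3% of all compared genes, and among deeply read genes 6 of 7 markers, beside 58.6%.

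These comparisons share the gRNA2+dox library, so the values of PROM1 in them are not independent of each other. PROM1 had fewer reads for its depth in the gRNA2 library than in the untreated CTL library too, at a log2 ratio of -0.45 (interval -0.57 to -0.33), which was short of the size limit. TCOF1 did not differ between those libraries beyond counting error, with a log2 ratio of 0.02 (-0.10 to 0.14).

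Doxycycline was compared without the TCOF1 guide in CTL+dox against CTL. PROCR was called higher, from 50 to 102 reads, with a log2 ratio of 0.88 (interval 0.39 to 1.41), and no other marker was called. Among all compared genes 3.78% were called, 1.74% as higher and 2.04% as lower. Of the other markers, 5 had intervals above 0 at small sizes, which makes 6 of 8 by the interval alone, beside 31.0% of all compared genes. Among deeply read genes it was 5 of 7 markers, beside 50.1%. CD47 was at 0.17 (0.10 to 0.24), ITGA6 at 0.13 (0.08 to 0.18), CD24 and EPCAM at 0.12 each and ITGB1 at 0.10 (0.04 to 0.15). CD44 at -0.00 and PROM1 at -0.02 had intervals that included 0. The median of the 8 markers was 0.12, where that of all compared genes was 0.01.

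The pools were compared without doxycycline in gRNA2 against CTL. PROCR was again the marker called, and higher, at 0.71 (interval 0.22 to 1.24), beside 4.89% of all compared genes called, 1.98% as higher and 2.91% as lower. Both calls of PROCR rest on the same 50 reads in CTL. CD44 was at 0.30 (0.28 to 0.32), a level 1.23-fold that of CTL, and ITGA6 and ITGB1 were at 0.17 and 0.11. PROM1, CD47 at -0.11 and CD24 at -0.07 lay below 0, and EPCAM at -0.01 could not be told from 0. By the interval alone 7 of the 8 markers were apart from 0, beside 31.5% of all compared genes, and among deeply read genes 6 of 7, beside 48.3%. A stricter rule, with a log2 ratio beyond 1 and a 1% posterior bound past 0.5, called 0 of the 8 markers in each of the 4 comparisons. Of all compared genes it called 0.599% in the first comparison, 1.51% with CTL+dox as the reference, 0.257% in CTL+dox against CTL and 0.566% in gRNA2 against CTL.

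**Figure D2:**
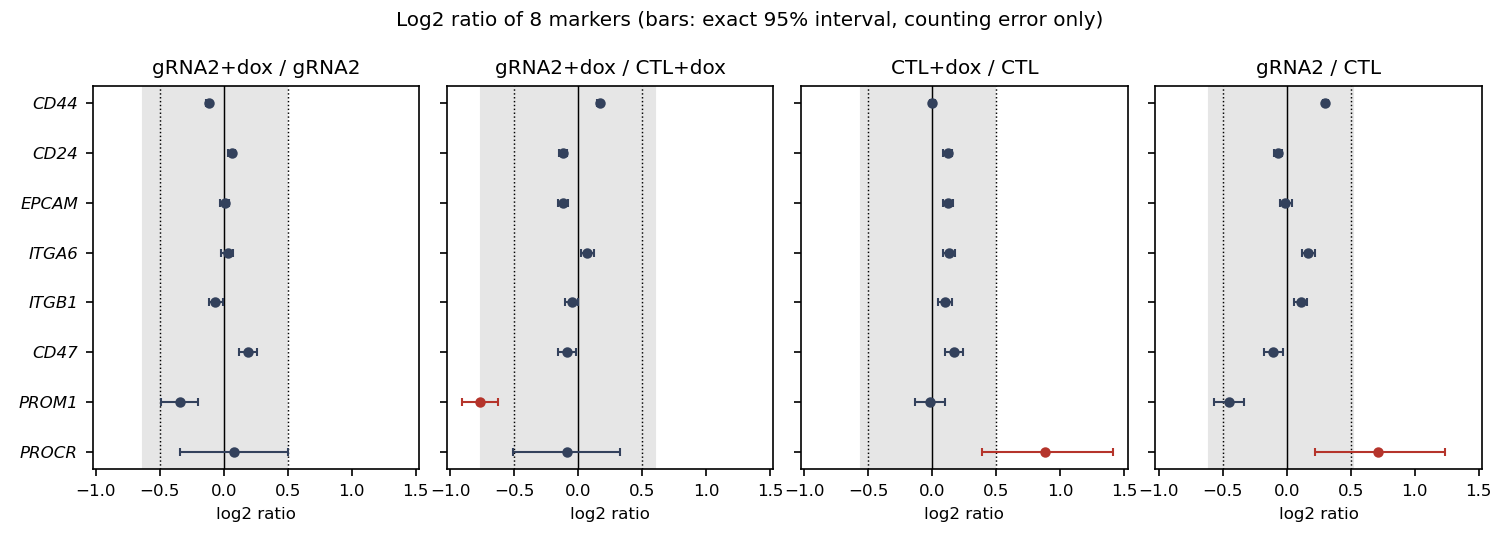
Log2 ratio (horizontal axis) of the 8 compared markers in the 4 comparisons, 1 panel each. Points are ratios of single libraries, bars their exact 95% intervals, dotted lines the size limit of 0.5, the grey band the range from the 5th to the 95th percentile of all compared genes, and red points the markers called. The called points are PROM1 at -0.77 in gRNA2+dox against CTL+dox and PROCR at 0.88 and 0.71 in the comparisons with CTL.

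Since each pool had its own untreated library, the doxycycline ratio of each pool was set beside that of the other, and the ratio in the CTL pool was subtracted from the ratio in the gRNA2 pool. For PROM1 the difference was -0.32 (counting SE 0.09, interval -0.51 to -0.14). For CD44 it was -0.12 (SE 0.01), for EPCAM -0.12 (SE 0.03), for ITGB1 -0.16 (SE 0.04), for ITGA6 -0.10 (SE 0.03) and for CD24 -0.06 (SE 0.02), and each of these intervals lay below 0. PROCR, at -0.80 (SE 0.32), carried its high ratio in the CTL pool into this value. CD47 alone was close to 0, at 0.02 (interval -0.08 to 0.12). In all, 7 of the 8 markers had an interval below 0, where 15.3% of the 15204 compared genes had one below and 11.6% one above. Among the 6627 deeply read genes 22.2% were below 0, beside 6 of the 7 markers read that deeply. The median was -0.12 for the markers and -0.02 for all compared genes. A change of library scaling shifts all 8 values together, and the count of 7 became 6 with size factors or plain totals and 5 with all libraries thinned to the same total. Apart from PROM1 and PROCR these differences were at most 0.16 in size, and the spread between cultures, which sets whether such sizes would recur, was not measured.

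**Figure D3:**
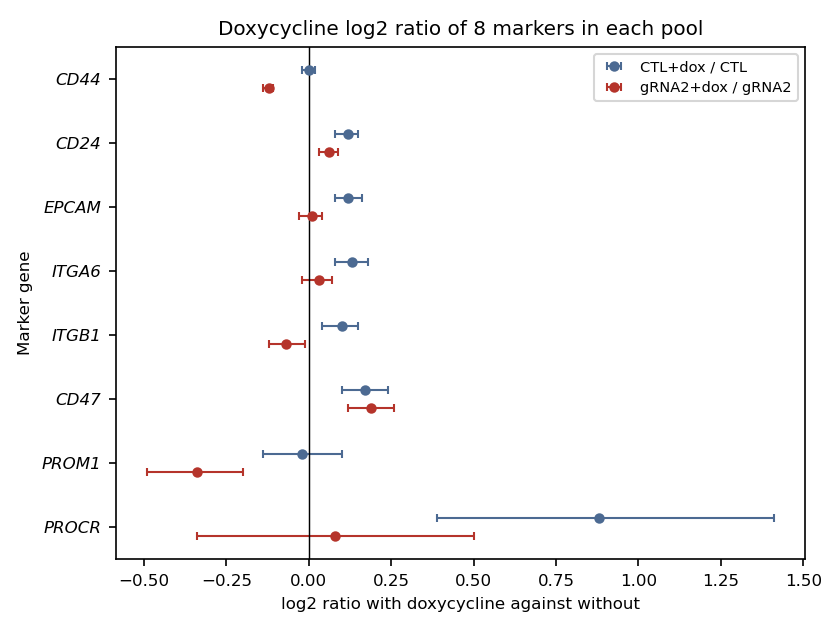
Log2 ratio with doxycycline against without (horizontal axis) for the 8 compared markers in the CTL pool (blue) and the gRNA2 pool (red). Points are ratios of single libraries and bars exact 95% intervals. The red point lies to the left of the blue one for every marker but CD47, where the ratios are 0.19 and 0.17.

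The ratio of CD44 to CD24 reads within a library does not depend on how the libraries are scaled. It was 2.18 in CTL (interval 2.14 to 2.23), 2.01 in CTL+dox (1.98 to 2.05), 2.81 in gRNA2 (2.76 to 2.86) and 2.48 in gRNA2+dox (2.43 to 2.52). All 4 intervals were apart. The ratio was lower with doxycycline in both pools, by a log2 difference of -0.18 (-0.22 to -0.15) in the gRNA2 pool and -0.12 (-0.15 to -0.08) in the CTL pool. Between the pools it was higher in the gRNA2 pool, by 0.36 (0.33 to 0.40) without doxycycline and 0.30 (0.26 to 0.33) with it. The guide and other differences between the pools cannot be told apart here. These are ratios of reads over all cells of a library, not corrected for gene length. They do not say which of the genes has more RNA, and they do not give the share of cells in a CD44 and CD24 gate. The study's authors state, without showing the data, that MDA-MB-468 has no cells in the gate of high CD44 with low or absent CD24.

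**Figure D4:**
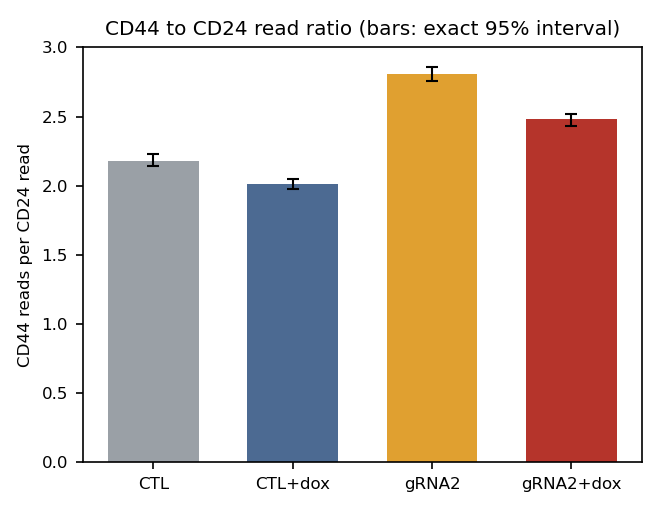
CD44 reads per CD24 read (vertical axis, from 0) in each library. Bars are single libraries and error bars exact 95% intervals, from 2.01 in CTL+dox to 2.81 in gRNA2.

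Reads of ITGA6 per read of ITGB1 were 1.23, 1.26, 1.28 and 1.37 in CTL, CTL+dox, gRNA2 and gRNA2+dox. The ratio in gRNA2+dox was above that in gRNA2 by a log2 difference of 0.09 (interval 0.02 to 0.16), and the other libraries without the knockout label had overlapping values. Reads of PROM1 per EPCAM read were 0.122, 0.110, 0.0897 and 0.0704 in the same order. The log2 difference was -0.35 (-0.49 to -0.20) for gRNA2+dox against gRNA2 and -0.65 (-0.79 to -0.51) against CTL+dox. EPCAM itself was at 0.01 and -0.12 in these comparisons. The differences rest on the same PROM1 reads as its ratios above and are no separate result.

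Among the 10532 genes with at least 100 reads in every library, PROM1 spanned 0.79 on the log2 CPM scale over the 4 libraries, and 1.39% of the genes, 146, spanned as much or more. CD44 spanned 0.30, and 35.4% of the genes spanned at least that. CD47 spanned 0.28, ITGA6 0.20, CD24 0.18, EPCAM 0.13 and ITGB1 0.11. For ITGB1 and EPCAM, 89.7% and 85% of the genes spanned at least as much.

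The genes whose levels ran closest to those of PROM1 over the 4 libraries, by Euclidean distance of centred log2 CPM, were EREG at 0.038, TOP2A at 0.056 and LGR6 at 0.063. EREG encodes epiregulin, a ligand of the EGF receptor, and had 546, 577, 493 and 328 reads in CTL, CTL+dox, gRNA2 and gRNA2+dox. TOP2A, a topoisomerase of dividing cells, had 498, 543, 486 and 306 reads, and LGR6, an R-spondin receptor, had 287, 326, 268 and 185. All 3 were lowest in gRNA2+dox, as PROM1 was, but they were picked for this likeness and it is no separate result. Whether the share of dividing cells had a part in the level of PROM1 was not tested. Nearest to CD44 were BEND3 at 0.010, B3GAT3 at 0.016 and ALDH3B2 at 0.017, and nearest to CD24 were RPS23 at 0.008, MTX2 at 0.014 and UBAC2 at 0.014. These distances rest on 4 libraries and describe them only.

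**Figure D5:**
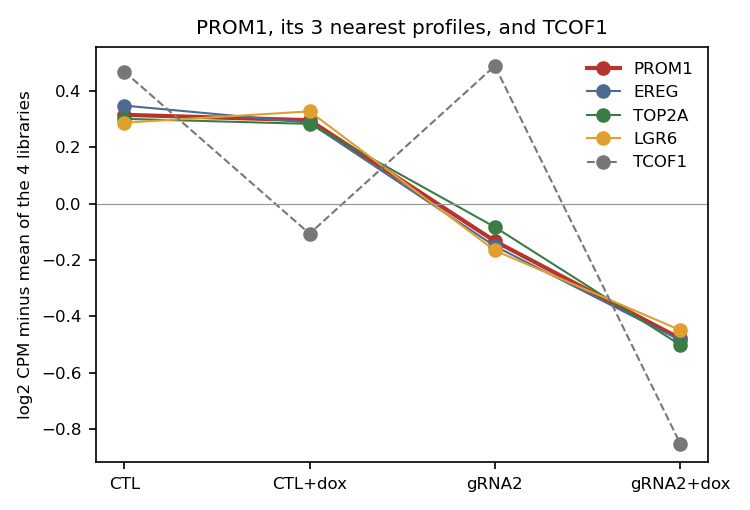
Log2 CPM minus its mean over the 4 libraries (vertical axis) for PROM1, its 3 nearest genes EREG, TOP2A and LGR6, and TCOF1 (dashed). Points are single libraries and the lines only join the points of a gene. PROM1 is low in gRNA2 and lowest in gRNA2+dox, and its nearest genes were picked for the same course. TCOF1 is low in both libraries with doxycycline and had 50.6 CPM in gRNA2.

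The partners of the markers were counted in 9 lists by role, by the same rule, and the shares of all compared genes given above hold here too. The list medians lay between -0.10 and 0.07 in gRNA2+dox against gRNA2, between -0.23 and 0.21 against CTL+dox, between -0.11 and 0.09 in CTL+dox against CTL and between -0.06 and 0.11 in gRNA2 against CTL. Among CD44 ligands, splicing, shedding and linker genes, 18 of 21 had enough reads. CD74, the invariant chain and a CD44 partner in signalling, had 225, 265, 479 and 599 reads in CTL, CTL+dox, gRNA2 and gRNA2+dox. It was higher in gRNA2+dox than in gRNA2 (log2 ratio 0.58) and than in CTL+dox (1.22), and higher in gRNA2 than in CTL (0.74). HMMR, a hyaluronan receptor of the mitotic spindle, was lower in gRNA2+dox, with 98 reads against 166 in gRNA2 and 160 in CTL+dox. SPP1, the CD44 ligand osteopontin, had 124 reads in CTL+dox against 64 in CTL and 73 in gRNA2+dox. HYAL3, of the hyaluronidase family, was at 0.52 in gRNA2+dox against gRNA2. In all, 3 of the 18 genes were called against gRNA2 and 3 against CTL+dox, which is 16.7% of the list. Of all compared genes, 5.12% were called against gRNA2 and 8.42% against CTL+dox. In each of the other comparisons 1 gene of the list was called. ESRP1, which favours the variant exons of CD44, and the CD44 linkers EZR and MSN were not called in any comparison.

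The integrin family, without ITGA6 and ITGB1, had 19 of 24 genes with enough reads. In each of 3 comparisons 1 of the 19 was called, and none was in CTL+dox against CTL. These were ITGB3, with 17 reads in gRNA2 and 28 in gRNA2+dox, ITGAX, with 72 in CTL+dox and 114 in gRNA2+dox, and ITGA10, with 17 in CTL and 7 in gRNA2. ITGB4, the other partner of ITGA6, had 17807, 19544, 25852 and 19594 reads, and its log2 ratio was -0.15 in gRNA2+dox against gRNA2 and 0.05 against CTL+dox. Among 15 laminins and hemidesmosome partners none was called in gRNA2+dox against gRNA2. DST, the hemidesmosome linker dystonin, was at 0.60 in gRNA2+dox against CTL+dox and at -0.54 in CTL+dox against CTL, comparisons that share the CTL+dox library with its 2163 reads. LAMA1, a laminin chain, had 3 reads in CTL and 17 in gRNA2, a 3.99-fold ratio with a log2 interval of 0.36 to 4.56.

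For EPCAM, 13 of 14 partner and cleavage genes had enough reads, and for PROCR 6 of 11 protein C and coagulation receptor genes, and none of either list was called in any of the 4 comparisons. The tight junction gene CLDN7, whose product binds EPCAM, was at -0.05 in gRNA2+dox against gRNA2. THBD, which presents thrombin to protein C, had 0 reads in all 4 libraries. Of 14 ABC transporters, not all of them drug efflux pumps, 9 had enough reads. ABCG1, a cholesterol exporter, was called in gRNA2+dox against CTL+dox, with 158 against 285 reads (log2 ratio -0.80), and none was called in the other comparisons. ABCB1, the efflux pump P-glycoprotein, had 38 to 57 reads.

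In the macrophage signalling list of CD47 and CD24, 7 of 10 genes had enough reads. CD274, which encodes PD-L1, had 223, 220, 260 and 314 reads and was higher in gRNA2+dox than in gRNA2 (log2 ratio 0.53) and than in CTL+dox (0.56). LRP1, a receptor for calreticulin on the engulfing cell, was at 0.60 in gRNA2+dox against CTL+dox. SIRPA, the receptor of CD47, had 353 reads in gRNA2 and 217 in gRNA2+dox and at -0.45 was short of the size limit. SIGLEC10, the receptor of CD24, had 0 reads throughout. None of the 7 was called in the comparisons with CTL. The GPI anchor machinery that attaches CD24 and THY1 to the membrane had 27 of 28 genes with enough reads. None was called in gRNA2+dox against gRNA2, and PIGV and GPAA1 were both at -0.65 in gRNA2+dox against CTL+dox. GPAA1, a subunit of the GPI transamidase, had 1135, 1411, 1190 and 872 reads. PGAP3 was at -0.65 in CTL+dox against CTL, on 35 and 50 reads, and none was called in gRNA2 against CTL.

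Other surface markers of stem or progenitor cells formed a list of 27 genes, of which 23 had enough reads. In gRNA2+dox against gRNA2, 2 of the 23 were called, both lower, beside 3.05% of all compared genes called lower. KIT, the stem cell factor receptor, had 27, 31, 20 and 3 reads in CTL, CTL+dox, gRNA2 and gRNA2+dox, a log2 ratio of -2.31 (interval -4.88 to -0.73) against gRNA2. MCAM, an adhesion molecule of endothelium and melanoma, had 318, 326, 328 and 166 reads, a log2 ratio of -0.73 (-1.01 to -0.45). Against CTL+dox 4 of the 23, or 17.4%, were called lower, beside 5.04% of all compared genes. These were KIT at -3.13, MCAM at -0.93, LGR6 at -0.77 and ST8SIA1, the GD3 synthase, at -0.51. The median log2 ratio of the list was -0.23 in that comparison and -0.10 against gRNA2, where all compared genes had 0.00 and -0.02. None of the list was called in CTL+dox against CTL, and CXCR4, with 5 reads in CTL and 0 in gRNA2, was the gene called in gRNA2 against CTL. PROM2, the relative of PROM1, had 3108, 3546, 3770 and 2756 reads and was at -0.20 in gRNA2+dox against gRNA2 and at -0.32 against CTL+dox, so it was not called in either. KIT was among the genes known to be low in gRNA2+dox when the list was drawn up, so its place in these counts is no independent result.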

How the data were processed

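Total RNA from 4 mammosphere cultures was sequenced by the authors, who trimmed adaptors with fastp, aligned reads with STAR and used GFOLD for differential expression. Per the submitters' processing notes the build was hg38; the STAR version and gene annotation are not given in the sources used here. The authors deposited raw counts of reads per gene from STAR, not normalized, in an unstranded column, which was used, and 2 stranded ones. STAR counts reads that map to 1 place, and sets aside those over overlapping genes. Lines for unmapped (2.255% to 2.49%), multimapping (3.387% to 4.848%), no-feature (10.553% to 12.493%) and ambiguous reads (2.088% to 2.173%) stayed out of library sizes.

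Counts were scaled with edgeR 4.0.16 (TMM, R 4.3.3). Log2 ratios used a prior count of 0.5 and exact 95% Clopper-Pearson intervals (Python 3.11.15, numpy 2.4.6, scipy 1.17.1, pandas 2.3.3, matplotlib 3.10.9). The code was run on simulated Poisson counts without spread between cultures, which checks counting error only. Genes reaching 10 counts in any library were compared. Positions came from RefSeq on GRCh38.p14 and union exon lengths from GENCODE 44 on GRCh37, matched by symbol for 91.3% of these genes. The guide was searched next to NGG motifs on both strands of each gene in GRCh37. With 1 library per condition no test across replicates was made, and GFOLD was not run. The strict rule used the cutoffs of the study's heatmap, with a Poisson posterior bound.

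The genes named were the 10 markers, TCOF1, cell type genes, and up to 4 called genes with the largest log2 ratios per list and comparison. The 3 genes nearest in profile were named for CD44, for CD24 and for 1 further marker. That was the marker of widest range among those with at least 100 reads in every library. PROM2, ITGB4, ESRP1, EZR, MSN, CLDN7, THBD, ABCB1, SIRPA and SIGLEC10 were named in addition after their values were seen. The markers and lists were chosen with earlier results of these data known. As alternatives, size factors from DESeq2 1.42.0, unadjusted totals, thinning, a prior count of 5, other filters, the stranded columns and other call rules were tried.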

Additional observations from a re-analysis of the deposited data

Results flagged for a closer look

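ITGB1 was the single marker whose doxycycline ratio lay on opposite sides of 0 in the 2 pools beyond counting error. The log2 ratio was -0.07 in the gRNA2 pool (interval -0.12 to -0.01) and 0.10 in the CTL pool (0.04 to 0.15). Over the alternatives for processing, the ratio in the gRNA2 pool ran from -0.072 to -0.038, and its interval above ended close to 0. With 1 library per condition the difference between the pools was not tested across replicates.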

How the results depend on the processing

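Each of the 32 marker ratios was recomputed under 5 alternatives for scaling, depth, prior count and counting column, and of 160 values 152 stayed within the original interval. The largest shift was 0.062, and 1 ratio, EPCAM in gRNA2+dox against gRNA2, changed sign around 0. The CD44 to CD24 ratio moved under none of its alternatives, which were a prior count of 5, the stranded columns and thinning. None of these varied the reads that CD24 may lose to its pseudogenes. The count of markers called kept to 0, 1, 1 and 1 in gRNA2+dox against gRNA2, gRNA2+dox against CTL+dox, CTL+dox against CTL and gRNA2 against CTL, with these exceptions. The strict rule gave 0 in each of the last 3, and without a filter CTL+dox against CTL gave 2, adding ABCG2 on 5 and 0 reads. By the interval alone, a rule added after seeing the data, 5, 6, 6 and 7 markers were apart from 0. Among all genes, in the same order, the strict rule called 91, 230, 39 and 86 genes, the size limit alone 1808, 2378, 1616 and 1791, and the interval alone 4707, 6126, 4712 and 4790. A filter of at least 50 counts left 506, 322 and 448 called in gRNA2+dox against gRNA2, CTL+dox against CTL and gRNA2 against CTL. With canonical transcript lengths, also added after seeing the data, the level per length in CTL was 738 for CD44, 32.9 for PROM1, 127 for ITGA6, 161 for ITGB1, 701 for EPCAM and 64.2 for CD47. No paired analysis was possible because the labels number no replicates. The pools pair the doxycycline ratios, whose difference the report gives. An additive fit on pool and doxycycline was not run, since its 1 residual degree of freedom is that difference. Leaving out a library would leave its condition empty. The spread between cultures is unknown, so small ratios of deeply read markers may lie within it, and ABCG2, THY1 and PROCR were limited by their reads.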
